A study of Tribolium castaneum with 2 samples.

Results

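The genome assembly of the red flour beetle *Tribolium castaneum* consists of linkage groups, which stand for the chromosomes, and of unplaced sequences, whose names start with LGUn and which have no position on a chromosome. Among the 2137 unplaced sequences with deposited counts, 330 (15.4%) were covered at high copy depth in whole genome bisulfite sequencing of eggs. They were chosen by a rule on the depth itself. A sequence needed at least 30 listed positions and a median above 10 of the reads summed over both libraries per position, where a position that only 1 library lists counted as 0 in the other. All values of depth below are therefore descriptions, while non-conversion and the read ratio of the libraries were not used by the rule. The spacing of positions rests in part on depth, so it is a description as well. By the study's methods, the DNA came from pooled eggs of the GA-2 strain, 24 h to 48 h old and without any treatment. They were sequenced as replicates 1 and 2 of 1 condition. Both samples are of this condition, so the comparisons are between parts of the assembly and between replicates. Nothing marks the sex or the cell type of the embryos, and each value is a mean over the pool. A listed position is a cytosine with its number of unconverted and converted reads, given without strand or sequence context.

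DNA that occurs in many copies, such as satellite DNA, transposable elements or ribosomal DNA, is difficult to assemble, since identical copies collapse into few sequences that then collect the reads of all copies. In beetles much of this DNA lies in heterochromatin around the centromeres. Bisulfite turns unmethylated cytosine into uracil, which is read as T, so that cytosines which are still read as C were either methylated, missed by the conversion or misread. Satellite DNA is a part of the beetle genome in which methylation has been discussed, and the study asked whether CpG methylation is present in the embryos at all. The identity of the 330 sequences is not known here, because neither the assembly of the counts nor an annotation of it was used. No bases are shown for the same reason.

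The 330 sequences were short. The distance between the first and the last listed position of a sequence was 1214 bp in the median (range 462 to 16742 bp). It was under 1000 bp in 121 sequences, from 1000 bp to under 2000 bp in 149 and at least 2000 bp in 60, of which 8 reached 5000 bp. Together they spanned 526393 bp and held 111068 listed positions, which is 0.556% of the 19983652 positions of the series. At these positions lay 6838763 reads of replicate 1, or 16.1% of that library, and 8279517 reads of replicate 2, or 14.9%. The mean share was 15.5% ± 0.863 (SD, n = 2). A read is counted at each cytosine that it covers. The sequences were not equal in their share of these reads, but no single one dominated. It took 63 of them to reach 50% of the reads, and the top 10 held 14.4%.

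Listed positions were closer together than elsewhere. There were 21.1 of them per 100 bp on the high copy sequences, against 11.5 on the other unplaced sequences and 12.6 on the linkage groups. Of the positions on the high copy sequences, 82.5% were listed in both replicates, against 56.6% on the other unplaced sequences and 54.6% on the linkage groups. A position is listed when it has a read, so both values rise with depth.

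The mean depth was 61.6 reads per position in replicate 1 and 74.5 in replicate 2, or 68.1 ± 9.17 (SD, n = 2). The other unplaced sequences had 3.43 ± 0.602 and the linkage groups 1.90 ± 0.391 reads per position. With the reads of both replicates summed, the median position of the high copy sequences had 19 reads, against 3 on the other unplaced sequences and 3 on the linkage groups. Among the 330 sequences, the most reads and the highest mean depth were found on LGUn_WGA1031_2, which spanned 1543 bp and held 173403 reads of replicate 1 and 211445 of replicate 2, or 0.392% of all reads of the series. It was followed by LGUn_WGA862_2 with 156038 and 191263 reads, LGUn_WGA2249_2 with 94749 and 115941, LGUn_WGA357_2 with 87664 and 104136 and LGUn_WGA1979_2 with 82439 and 101164. These 5 sequences were alike only in their total. LGUn_WGA1031_2 had a median of 113 summed reads per position, which was the highest of all, while LGUn_WGA1979_2 had a median of 14 and a mean of 558.

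The sequences with the most listed positions were of another kind. LGUn_WGA321_2 had 4566 positions over 12657 bp, LGUn_WGA406_2 had 3912 over 16742 bp, LGUn_WGA367_2 had 2824 over 7245 bp and LGUn_WGA742_2 had 2384 over 6618 bp. Their medians were 14, 12, 11 and 11 summed reads. The fifth was LGUn_WGA2249_2 with 2249 positions over 12962 bp and a median of 20. The fewest positions were found on LGUn_WGA504_2 (45), LGUn_WGA1555_2 (47) and LGUn_WGA1288_2 (65).

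At the limit of the rule the sequences did not fall into separate classes. A median of 11 was found in 19 sequences just inside, among them LGUn_WGA1012_2, LGUn_WGA1059_2 and LGUn_WGA1417_2 with means of 54.1, 179 and 95.3 summed reads. A median of 10 was found in 13 sequences just outside, among them LGUn_WGA1236_2, LGUn_WGA1268_2 and LGUn_WGA1346_2 with means of 26.3, 28.0 and 62.7. None of the 26 unplaced sequences with fewer than 30 positions had a median above 10.

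The depth was very uneven within the sequences. The mean exceeded the median by a factor of 5.66 in the median sequence (range 1.52 to 39.9), and by more than 3 in 291 of the 330. The 10% of positions with the most reads held 59.9% of the reads of a sequence in the median (range 28.7% to 87.7%). At the same time, 25.9% to 49.8% of the positions of a sequence had 10 reads or fewer. Of all positions on the high copy sequences, 2.67% had at least 1000 summed reads and held 39.7% of the reads, whereas the 38.4% with 1 to 9 reads held 0.955%.

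**Figure D1:**
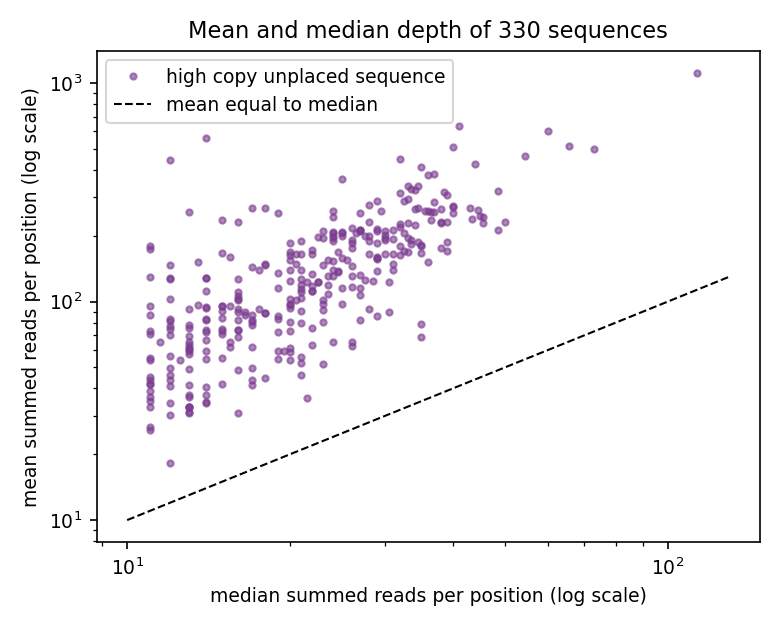
Each point is 1 of the 330 high copy unplaced sequences, with the median (x axis) and the mean (y axis) of the summed reads per position, both on log scales. All points lie above the dashed line of equal mean and median, with a factor from 1.52 to 39.9.

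Deep and shallow positions lay next to each other. The deepest position of all high copy sequences is position 1075 of LGUn_WGA1031_2, with 8658 reads in replicate 1 and 10037 in replicate 2. The directly adjacent position 1076 had 2 and 1 reads, and position 1077 had 8650 and 10037 reads again. Such steps were common. Among 10791 pairs of directly adjacent listed positions with at least 100 summed reads at the deeper one, the depth differed by at least 10-fold in 46.5%, against 38.8% on the other unplaced sequences and 34.6% on the linkage groups. Of the 5022 steps of this kind on the high copy sequences, 93.6% were also at least 10-fold within each replicate. The depth of a cytosine was therefore not the depth of its surroundings, and a position with few reads could lie within a sequence with many. Reads of opposite strands could not be told apart here.

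**Figure D2:**
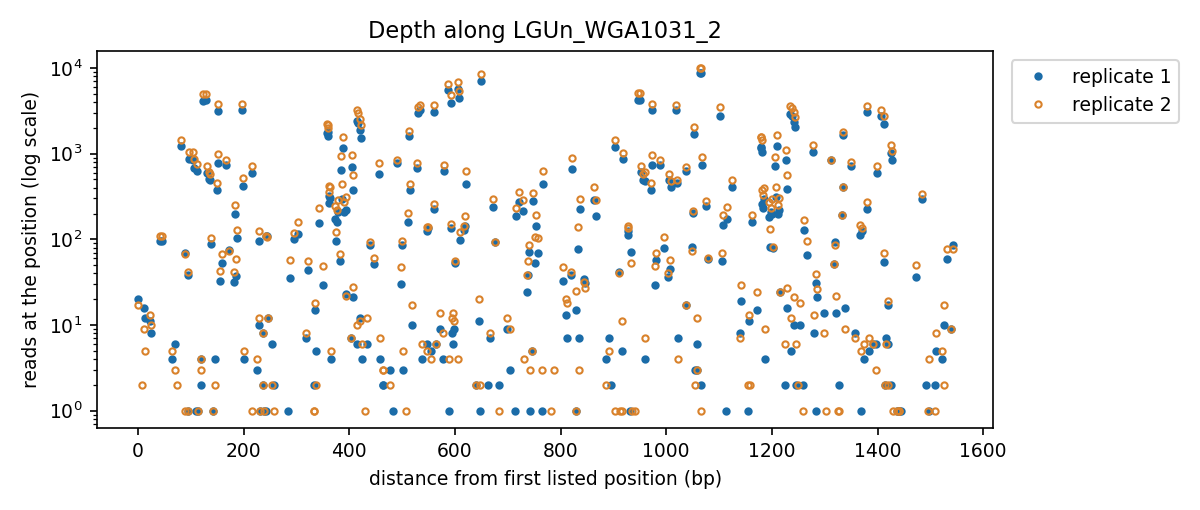
Reads at each listed position (y axis, log scale) along LGUn_WGA1031_2 (x axis, distance in bp from the first listed position) in replicate 1 (filled) and replicate 2 (open). The replicates lie on top of each other, with up to 8658 and 10037 reads at a position and single reads close by.

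The pattern of depth was the same in both libraries. For the positions of a sequence that are listed in both, the correlation of log2 depth between replicates was 0.966 in the median sequence (Pearson's r, range 0.875 to 0.989 over 330 sequences). It is given as a description, since the positions of a sequence share reads and each sequence had between 37 and 3832 such positions. Toward the ends of the sequences depth was lower. Within 100 bp of the first or last position the median depth was 14 reads in the median sequence, against 22.5 reads in the interior, and the ends were lower in 239 sequences, higher in 84 and equal in 7.

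The spacing of deep positions linked the sequences to each other. This search was made after the depth profiles had been seen, and it has no test. A position was called deep with at least 100 summed reads, and an arrangement was defined as the series of gaps between 8 consecutive deep positions. A mirrored series was taken as the same arrangement, since it is what the opposite strand of the same DNA would give. Of the 330 sequences, 328 had at least 8 deep positions, and 304 (92.1%) shared an arrangement with another high copy sequence. Of 16116 distinct arrangements on the high copy sequences, 3105 were found on 2 or more of these sequences and 85 on 10 or more. Most arrangements were thus not shared with another high copy sequence. Any shared arrangement was enough for a sequence to count among the 304. Arrangements overlap, since each deep position can start a new one. The same shared stretch can thus give several arrangements, and their numbers do not count separate stretches.

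The most widespread arrangement had gaps of 2, 1, 2, 1, 6, 50 and 8 bp over 71 bp. It was found on 34 high copy sequences in 45 copies, 21 in this order and 24 mirrored, and on 2 other sequences. The next had gaps of 4, 14, 1, 2, 12, 2 and 7 bp over 43 bp, with 39 copies on 30 high copy sequences, 18 in this order and 21 mirrored. Of all 3105 shared arrangements 62.3% were found both ways round. Outside the high copy sequences, 136 of 212 other unplaced sequences and 33 of 66 sequences of the linkage groups with at least 8 deep positions held an arrangement of a high copy sequence. These had fewer deep positions to search, with 10268 and 2988 against 26531, so the shares cannot be compared.

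**Figure D3:**
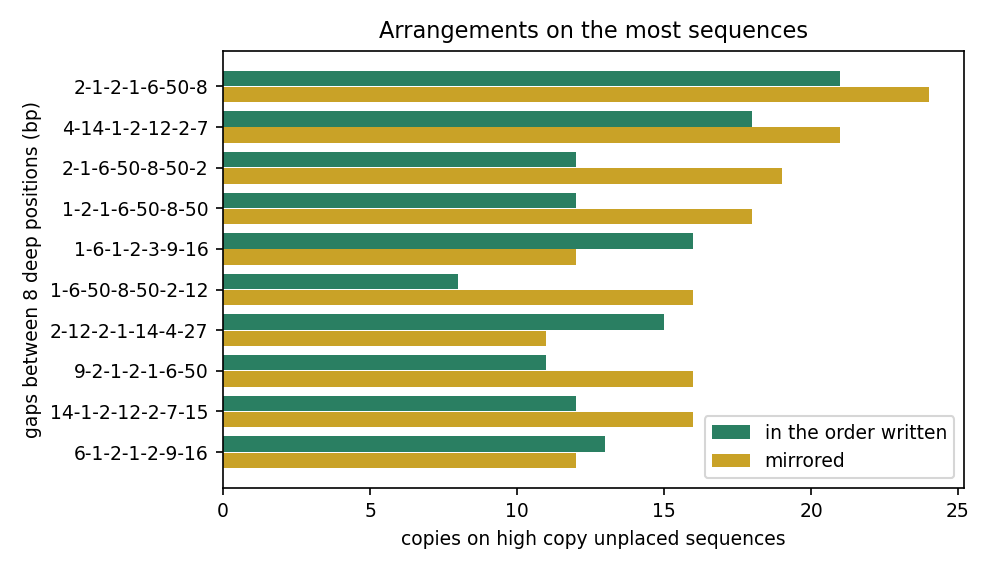
Number of copies (x axis) of the 10 arrangements found on the most high copy unplaced sequences, each named by the 7 gaps in bp between 8 deep positions (y axis). Copies in the order written and mirrored copies were both found for each of them, with 21 and 24 for the arrangement at the top. Several of the arrangements overlap and are shifted forms of the same series of gaps.

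Linked by shared arrangements, 248 sequences formed 1 connected group and 43 a second, while 13 fell into 4 smaller groups and 26 shared none. A link needed only 1 shared arrangement, and sequences of a group can be linked only through others. Members of a group thus need not share an arrangement with each other. Other limits for a link were not computed. The first group held 86.4% of the reads of the high copy sequences. It had 18.2 listed positions per 100 bp and a median depth of 24 reads in the median sequence. The second group held 9.65% of the reads and had 32.1 listed positions per 100 bp and a median depth of 17 reads. The 4 longest lists of positions, LGUn_WGA321_2, LGUn_WGA406_2, LGUn_WGA367_2 and LGUn_WGA742_2, belong to the second group, and the 5 sequences with the most reads to the first. Depth was also less uneven in the second group, where the mean exceeded the median by a factor of 2.95 in the median sequence, against 6.42 in the first.

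Arrangements were repeated within 83 of the sequences (25.2%), in 76 of them the same way round. Overlapping arrangements of the same repeated stretch are counted as separate repeats here and below. In LGUn_WGA1031_2, 17 of the 20 repeats were 821 bp apart. In LGUn_WGA321_2 all 27 repeats were 3354 bp apart, and in LGUn_WGA860_2, of the first group, all 34 were 1098 bp apart. The latter is a multiple of the distance of 122 bp described next, but none of the 34 were at 122 bp itself. Whether these distances are related was not tested. The distance found most often was 122 bp, with 87 repeats on 5 sequences, all of the second group. On LGUn_WGA1801_2 all 99 repeats and on LGUn_WGA776_2 all 41 repeats were at a multiple of 122 bp, as were 33 of 34 on LGUn_WGA1798_2. LGUn_WGA1801_2 and LGUn_WGA776_2 shared 56 arrangements with each other. The other 2 with a distance of 122 bp were LGUn_WGA406_2 and LGUn_WGA1444_2. The sequences named in this paragraph were chosen after their values were seen.

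The replicates did not share their reads in the same proportion everywhere. Replicate 2 had 1.21 times the reads of replicate 1 on the high copy sequences, against 1.28 times on the other unplaced sequences and 1.34 times on the linkage groups. The ratio was below that of the linkage groups in 328 of the 330 sequences (median 1.21, range 1.05 to 1.40). It was highest in LGUn_WGA1881_2, with 2234 reads in replicate 1 and 3121 in replicate 2, followed by LGUn_WGA504_2 (808 and 1087) and LGUn_WGA1965_2 (7248 and 9522). It was lowest in LGUn_WGA1185_2 (5061 and 5301), LGUn_WGA1161_2 (5600 and 5907) and LGUn_WGA579_2 (5141 and 5459). Divided by the ratio of the linkage groups, the ratio of the high copy sequences was 0.902, and 0.965 at positions listed in both replicates only. For the median position with at least 5 reads in each replicate it was 1.20. This limit is set on the reads of both replicates themselves and removes mostly shallow positions. It also takes a median over positions in place of read totals. The value therefore cannot show a change of direction.

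Depth moved with this ratio. At positions with at least 1000 summed reads it was 1.21 on the high copy sequences, 1.21 on the other unplaced sequences and 1.22 on the linkage groups, and at 100 to under 1000 reads it was 1.21, 1.20 and 1.20. At positions with 1 to 9 reads, however, it was 1.19 on the high copy sequences, against 1.35 on the other unplaced sequences and 1.35 on the linkage groups. Shallow positions on the high copy sequences thus had the ratio of the deep positions around them, not that of shallow positions elsewhere. With 1 library per replicate this is a description.

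**Figure D4:**
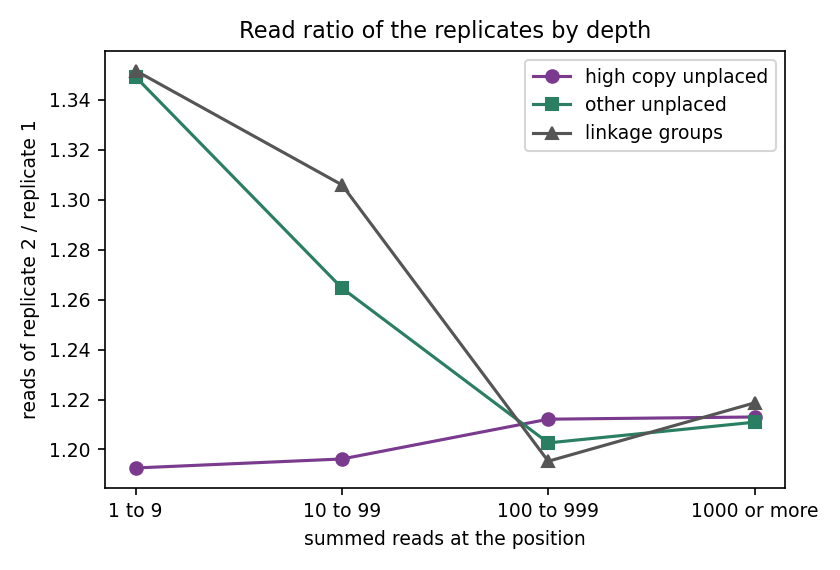
Reads of replicate 2 divided by reads of replicate 1 (y axis, which does not start at 0) for positions grouped by summed reads (x axis) on high copy unplaced sequences, other unplaced sequences and linkage groups. The high copy sequences stay between 1.19 and 1.21, while the others start at 1.35 and reach 1.20 to 1.22 from 100 reads on.

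Nearly all cytosines of the high copy sequences were converted. Of the 6838763 reads of replicate 1, 2719 stayed unconverted, or 0.0398% (95% Wilson interval 0.0383% to 0.0413%), and in replicate 2 it was 5053 of 8279517, or 0.0610% (0.0594% to 0.0627%). The mean was 0.0504% ± 0.0150 (SD, n = 2). Here and below the intervals and p-values cover counting error only, since cytosines of 1 molecule are read together. The rate on the other unplaced sequences was 0.0383% in replicate 1 and 0.0577% in replicate 2, with a mean of 0.0480% ± 0.0137 (SD, n = 2). On the linkage groups it was 0.0381% and 0.0558%, with a mean of 0.0469% ± 0.0125 (SD, n = 2). The spread between the replicates was larger than the differences between these classes of sequence.

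Within a replicate the high copy sequences had a rate 1.04 times that of the other unplaced sequences in replicate 1 (two-sided Fisher's exact test on the pooled reads, adjusted p = 0.174) and 1.06 times in replicate 2 (adjusted p = 0.00696). Against the linkage groups the factor was 1.04 in replicate 1 (adjusted p = 0.0636, Fisher's exact test) and 1.09 in replicate 2 (adjusted p = 5.56e-08). The p-values were adjusted over these 4 comparisons. The excess did not hold under all settings. Without the 0.1% deepest positions of the series, the factor against the linkage groups was 0.888 in replicate 1 (adjusted p = 0.0304, Fisher's exact test) and 1.04 in replicate 2 (adjusted p = 0.339). This cut is on the depth that the rule used, and it takes all positions with at least 1000 summed reads. These held 39.7% of the reads of the high copy sequences, against 0.346% of those of the linkage groups. At positions of like depth, with at least 100 and under 1000 summed reads, it was 0.733 in replicate 1 (adjusted p = 0.00241, Fisher's exact test) and 1.05 in replicate 2 (adjusted p = 0.575). The direction of the difference from the linkage groups therefore depended on the positions that were compared.

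Non-conversion was higher at deeper positions of the high copy sequences. It was 0.0258% in replicate 1 and 0.0560% in replicate 2 at positions with 1 to 9 reads, where 17 and 44 reads were unconverted, and 0.0336% and 0.0558% at 10 to 99 reads. It was 0.0383% and 0.0584% at 100 to under 1000 reads, and 0.0434% and 0.0658% at 1000 reads or more. In replicate 1 the intervals at 10 to 99 reads (0.0296% to 0.0382%) and at 1000 reads or more (0.0410% to 0.0460%) do not overlap, and in replicate 2 those intervals (0.0509% to 0.0611% and 0.0631% to 0.0686%) do not overlap either. A higher level at depth was also found outside the high copy sequences, but not for each class of sequence in each replicate. From 1 to 9 reads to 1000 reads or more, the linkage groups went from 0.0372% to 0.0575% in replicate 1. In replicate 2 they went from 0.0548% to 0.0600%, where the interval at 1000 reads or more (0.0479% to 0.0752%) covers the lower value. That depth was reached at 120 of their positions, with 59 and 75 unconverted reads in replicates 1 and 2. The other unplaced sequences went from 0.0367% to 0.0359% in replicate 1 and from 0.0539% to 0.0630% in replicate 2. Across the 330 high copy sequences, Spearman's rho between median depth and pooled non-conversion was 0.0571, as a description of sequences that share repeats and libraries. Most sequences had few unconverted reads, which limits this value.

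**Figure D5:**
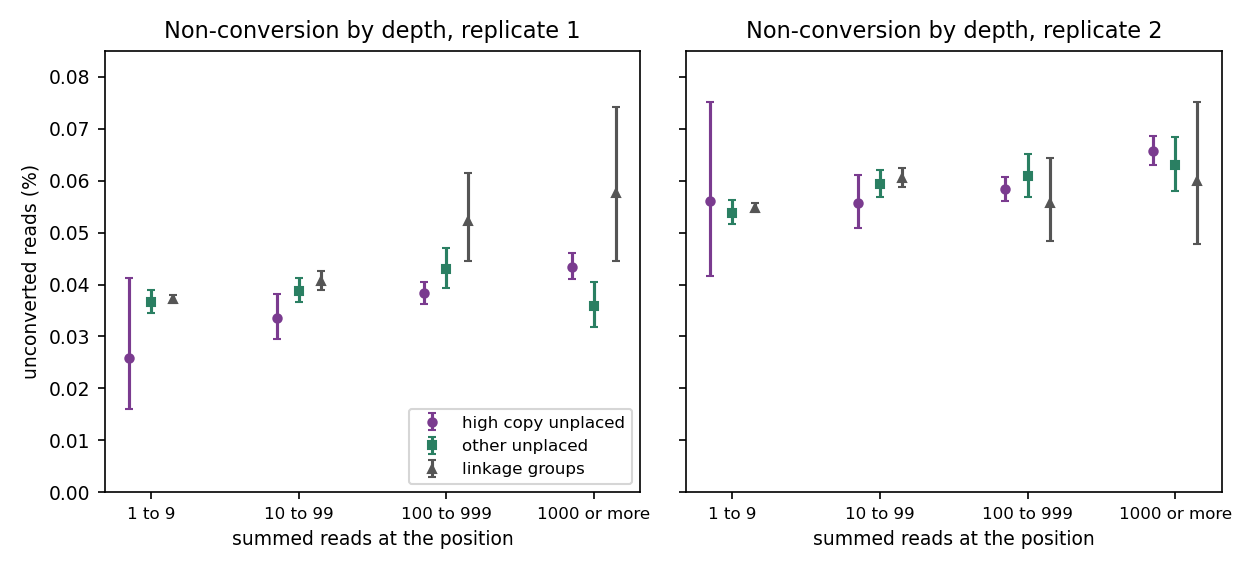
Percentage of unconverted reads (y axis) for positions grouped by summed reads (x axis) on high copy unplaced sequences, other unplaced sequences and linkage groups, in replicate 1 (left) and replicate 2 (right). Error bars are 95% Wilson intervals. The high copy sequences lie between 0.0258% and 0.0434% in replicate 1 and between 0.0558% and 0.0658% in replicate 2.

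The level at the ends of the sequences was that of the interior within the counting error. Within 100 bp of the ends it was 0.0404% in replicate 1 and 0.0627% in replicate 2, against 0.0397% and 0.0609% in the interior. The factors of 1.02 and 1.03 did not pass the test (two-sided Fisher's exact test, adjusted p = 0.782 in both replicates). The linked groups were not tested against each other. The group of 248 sequences had 0.0404% (95% Wilson interval 0.0388% to 0.0421%) in replicate 1 and 0.0608% (0.0590% to 0.0626%) in replicate 2, and the group of 43 had 0.0347% (0.0305% to 0.0395%) and 0.0651% (0.0597% to 0.0709%). The group of 43 was lower in replicate 1 and higher in replicate 2. The intervals of the groups overlap in both replicates, which does not show that the levels are equal.

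Single sequences ranged from 0 to 0.128% in replicate 1 and from 0 to 0.358% in replicate 2. The rate was higher in replicate 2 for 259 sequences, lower for 68 and equal for 3. Spearman's rho between the rates of the replicates over the 330 sequences was 0.0324, as a description. The median sequence had 6 unconverted reads in replicate 1 and 10 in replicate 2. With so few, this value cannot show whether the sequences differ in level. No unconverted read was found in replicate 1 on 24 sequences, in replicate 2 on 7 and in both on 3. One of these was LGUn_WGA1881_2 with 0 of 2234 and 0 of 3121 reads, which allows a share of up to 0.134% and 0.0961%.

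Each sequence with at least 1000 reads in each replicate was tested against the overall rate of the replicate (two-sided exact binomial test, Benjamini-Hochberg adjustment over all 1195 sequences of the assembly that were tested, threshold 0.05). Of the 329 high copy sequences tested, 0 passed in both replicates, as did 0 of all 1195 (0%). At an unadjusted p-value under 0.05, 1 high copy sequence was higher in both replicates, as were 3 of all 1195, and 0 were lower in both, as were 0 of all 1195. In replicate 1 alone 0 passed, with 14 of the 329 higher and 5 lower at an unadjusted p-value under 0.05, against 41 higher and 11 lower of all 1195. In replicate 2 alone 3 of the 329 passed as higher, where 0.502% of all tested sequences did. At an unadjusted p-value under 0.05 it was 21 higher and 8 lower there, against 75 higher and 31 lower of all 1195.

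These 3 sequences differed in how their unconverted reads were placed. On LGUn_WGA1185_2, 19 of 5301 reads were unconverted in replicate 2, or 0.358% (6.30 times the overall rate, adjusted p = 3.56e-07, exact binomial test). In replicate 1 it was 0 of 5061, which allows a share of up to 0.0593%. Each of the 19 unconverted counts lay at a position of its own, and 16 of them between positions 606 and 666, where 31 positions were listed in the window of 100 bp. Cytosines of the same molecule are read together, so these counts need not come from separate molecules. The test takes them as separate, and its p-value does not allow for this. On LGUn_WGA1801_2, one of the sequences with repeats at 122 bp, 45 of 30962 reads were unconverted in replicate 2, or 0.145% (2.55 times, adjusted p = 1.38e-05, exact binomial test), against 10 of 25723 in replicate 1, or 0.0389%. They were spread over 42 positions, with at most 8 such positions in any window of 100 bp. On LGUn_WGA2135_2, 28 of 16671 reads were unconverted in replicate 2, or 0.168% (2.95 times, adjusted p = 0.000248, exact binomial test). Replicate 1 had 12 among 13580 reads there, or 0.0884%. Of the 28 reads, 12 lay at a single position.

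That position was also found when positions were tested one by one. Positions with at least 5 reads in each replicate were compared with the overall rate for an excess of unconverted reads (exact binomial test, one-sided, adjusted by Benjamini-Hochberg over all 741824 positions that qualified in the series). On the high copy sequences 2 of 64475 tested positions passed in both replicates, where 0.000944% of all positions did. At position 1008 of LGUn_WGA2135_2, replicate 1 had 11 unconverted among 481 reads (2.29%) and replicate 2 had 12 among 611 (1.96%), with adjusted p-values of 2.40e-11 and 6.33e-10 in the exact binomial test. At the 26 other listed positions within 100 bp, 5 of 5225 reads were unconverted in both replicates together. At position 415 of LGUn_WGA1604_2 replicate 1 had 4 among 56 reads (7.14%) and replicate 2 had 5 among 74 (6.76%), with adjusted p-values of 0.000648 and 9.86e-05 in the exact binomial test. At the 31 other positions within 100 bp, 1 of 5797 reads was unconverted. More than 9 in 10 reads were thus converted at both positions. At an unadjusted p-value under 0.05 in both replicates it was 49 of the 64475 positions, which are among the 107 of all 741824. A position with more reads has more chances to show an unconverted read in both replicates. The rule chose for depth, so these counts do not compare levels. With a background of 1%, 0 positions of the high copy sequences passed the adjusted test.

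The high copy sequences held most of the positions that were unconverted in both libraries. Of the 1038 positions of the series with an unconverted read in each replicate, 735 (70.8%) lay on them, on 210 of the 330 sequences, against 220 on the other unplaced sequences and 83 on the linkage groups. In replicate 1, 2291 positions of the high copy sequences had an unconverted read and in replicate 2 it was 3963. A position with more reads has more chances to show one, and the share of positions is therefore not a measure of the level, which was given above.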

How the data were processed

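Eggs of 1 condition were sequenced as 2 replicates. Reads were trimmed (Trimmomatic 0.32 is named in the submitters' processing notes), mapped with BSMAP 2.5 to assembly version 3.0, cleared of duplicates with Picard and counted per cytosine by the authors. How reads that map to several places were treated is not given in the sources used here, and it can affect the depth of repeated DNA. The deposited tables hold raw read counts, unconverted and converted, without normalization. They have no header, and which column is which was read from the methods and from the values. Positions were joined by sequence name and position, and unconverted over all reads gave the non-conversion. The replicates are separate pools of eggs of 1 strain by the study's methods, and the tests compare reads within a library.

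The sequences and lists were chosen with earlier results of these data known. Named were the sequences with the most reads, the most or fewest positions, medians nearest to the limit, the most extreme read ratios and those past a test. The tests were tested on simulated data. Genes were not analysed here. Confidence intervals are 95% Wilson intervals, and the limit of a count of 0 is 3 reads. Alternatives to depth and position limits, positions, background and replicates were computed. Statistics were computed with scipy 1.17.1 and tables with pandas 2.3.3 in Python 3.11.15, with networkx 3.6.1 for the linked groups.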

Additional observations from a re-analysis of the deposited data

How the results depend on the processing

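The number and the share of the high copy sequences follow from the limits of the rule. With a median above 20 or above 50 in place of 10, 179 and 5 sequences remained with 10.9% and 1.15% of the reads, and with the mean in place of the median it was 652 with 23.0%. A median above 5 gave 20.04% of the reads and positions listed in both replicates 17.8%. For 1 replicate at a time the limit was lowered to a median above 5, over the positions listed in that replicate. This gave 367 to 388 sequences with 16.0% to 17.2% of the reads and a non-conversion of 0.0395% to 0.0609%. Counted as positions in place of reads, 3.08% of positions had an unconverted read, a share that rises with depth and is not the level.

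The comparison with the other unplaced sequences and the linkage groups depended on the positions that were compared. Without the 0.1% deepest positions the factors were 0.893 and 0.888 in replicate 1 and 1.02 and 1.04 in replicate 2. This cut took a larger share of the reads of the high copy sequences than of the others. With at most 1 unconverted read per position they were 0.920 and 0.888 in replicate 1 and 0.892 and 0.862 in replicate 2, but this limit lowers the level of deep positions by its construction and says nothing about the direction. The following 2 restrictions were chosen after seeing the data. At positions with 10 to 99 reads the factors were 0.866 and 0.825 in replicate 1 and 0.939 and 0.920 in replicate 2. With 100 to under 1000 reads they were 0.891 and 0.733 in replicate 1 and 0.959 and 1.05 in replicate 2. Against the other unplaced sequences in replicate 2 the factor was 1.04 (adjusted p = 0.101, Fisher's exact test) at positions listed in both. As a share of positions with an unconverted read the factors in replicate 1 were 15.4 and 27.1. A deeper position has more chances to show such a read, so these factors rise with the depth that the rule used. They are not a measure of the level. The causes were not tested.

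The test per sequence gave 0 to 3 high copy sequences in 1 replicate alone. A background of 1% left 0 single positions. At the ends of sequences over 1000 bp the factor was 0.967 in replicate 1 and 1.08 in replicate 2. The read ratio relative to the linkage groups was 0.965 at positions listed in both and 1.20 for the median position with at least 5 reads in each replicate. The latter limit is set on the reads of both replicates, so its value does not show a direction. Arrangements of 6 deep positions were repeated within 135 sequences, and with 1 replicate left out 75 to 88 sequences repeated an arrangement and 296 to 311 shared one. No paired comparison of conditions was possible because the libraries are of only 1 group.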

Other observations

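On 4 high copy sequences the commonest distance between repeats was shorter than 122 bp, and they were chosen after their values were seen. On LGUn_WGA547_2, which belongs to neither of the larger linked groups, 54 of the 97 repeats of an arrangement were 5 bp apart. Of the gaps between its 164 deep positions, 68 were 1 bp and 56 were 4 bp. The mean depth was 1.97 times the median. The non-conversion of LGUn_WGA547_2 was 0.0428% in replicate 1 and 0.0172% in replicate 2, and neither passed the exact binomial test. The distance was 18 bp for all 8 repeats on LGUn_WGA2122_2, all 5 on LGUn_WGA2127_2 and the 1 on LGUn_WGA834_2, which belong to the second linked group.

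Within the high copy sequences 89 repeats of an arrangement were mirrored, against 1435 the same way round. In LGUn_WGA2249_2, 45 of 172 repeats were 1792 bp apart, and in LGUn_WGA406_2, 19 of 62 were 3086 bp apart.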
